A study of Homo sapiens with 8 samples.

Results

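The regions described here are narrow QKI7 peaks that both replicates with the control guide held and that neither replicate with the METTL1 guide touched. They were chosen from the authors' peak lists by 4 conditions: a single exon block, a block of under 1000 bases, at least 1 base in common with a peak of the other control list on the same strand, and no base in common with any peak of either METTL1-guide list. Of 42083 peaks in 4 lists, 2342 met these conditions: 1164 of the 11562 peaks of control replicate 1 and 1178 of the 11038 of control replicate 2. They are called sgNS-only narrow peaks below. Joined where they share a base, they form 1305 sites in 1133 genes. Presence and absence in all 4 lists chose them, so the difference between the guides at these places is a description and carries no test.

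QKI7 is an isoform of Quaking, an RNA-binding protein of the STAR family that recognises short elements of the ACUAAY type and takes part in splicing, transport, stability and translation of its target RNAs. METTL1, with its partner WDR4, methylates guanosine in transfer RNAs and other RNAs to 7-methylguanosine. The study asked whether METTL1 affects how QKI7 binds its transcripts.

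Every sample came from HepG2 cells, a human liver cancer line, made to carry Cas9 and a lentiviral 3 x Flag-QKI7 transgene, so the protein recovered was the tagged transgene product. GFP-positive cells were kept for the study. The control cells carried the guide sgNS and the METTL1-depleted cells the guide sgMETTL1, and nothing in the labels says whether they were clones. After UV cross-linking, a Flag antibody pulled down QKI7 with its RNA. Each guide had 2 input and 2 IP samples, 8 samples in all, and each IP and input pair gave 1 deposited list of peaks. The labels do not say whether replicates were separate cultures. Each peak's fold (IP over input) and p are as the authors deposited them, and the read depth behind them is unknown. No peak in METTL1 or WDR4 was listed with either guide, so the lists do not check the depletion. Peaks in the hepatocyte genes SERPINA1, FGB, APOB and HNF4A were listed in all 4 lists, whereas none was listed for AFP, APOA1, TF or TTR, and a missing peak does not show that a gene was silent.

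How many narrow peaks the control replicates shared without a counterpart under sgMETTL1 was counted first. Replicate 1 of sgNS held 9800 narrow peaks, of which 7497 met a peak of replicate 2. Of these, 4882 met both sgMETTL1 lists, 824 met the first alone, 627 met the second alone and 1164 met none, a share of 15.5% (95% exact binomial interval 14.7 to 16.4). Replicate 2 held 9299 narrow peaks, of which 7619 met replicate 1. Of these, 4937 met both sgMETTL1 lists, 883 the first alone, 621 the second alone and 1178 none, or 15.5% (14.7 to 16.3). Both shares count largely the same places against the same sgMETTL1 lists, so their closeness is no independent replication. The same count with the guides exchanged gave 169 of 6228 narrow peaks in replicate 1 of sgMETTL1, or 2.71% (2.32 to 3.15), and 154 of 6136 in replicate 2, or 2.51% (2.13 to 2.93). The intervals reflect counting error alone and treat peaks as independent, which peaks of 1 gene are not. An exact test of 2 lists against 2 has p = 0.33 as its smallest value.

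Several properties of the lists moved with the guide beside these shares. The sgNS lists were longer, with 11562 and 11038 peaks against 10095 and 9388, and their median log10 p was -10.8 in both, against -7.42 and -7.97 with sgMETTL1. When each list was reduced to its 9388 strongest peaks by log10 p, the mean number of sgNS-only narrow peaks per list fell from 1171 to 733 and the mean share from 15.5 to 11.4%, while the reverse share rose from 2.61 to 3.70%. The count also moved with every list. Without sgMETTL1 replicate 1 or 2 the mean per list was 2024.5 or 1795, and without sgNS replicate 1 or 2, where no partner was required, the remaining list held 2322 or 2761. Whether these properties of the lists account for part of the gap was not tested.

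The share of unmet peaks differed with the shape of a peak. A single shared base counted as meeting. A longer block had more bases that could meet a peak, so the shares follow in part from the rule. No peak of a single block of 1000 bases or more was absent from both sgMETTL1 lists among 712 in replicate 1, and 1 was among 688 in replicate 2. That peak lay in DOT1L, was 1201 bases long and had a fold of 3.97. Peaks of several exon blocks stood between, with 82 of 904 (9.07%) and 71 of 909 (7.81%) unmet. The widest of the chosen peaks lay in LPP, at 990 bases, and in PLD1, at 747 bases, both in replicate 1.

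The sgNS-only narrow peaks were short and weak within their lists. Their median block size was 180 bases in replicate 1 and 151 in replicate 2, against 358 and 330 bases for narrow peaks that met an sgMETTL1 list. Blocks under 200 bases made up 63.2 and 68.9% of them, against 17.1 and 21.7%. Since a single shared base counted as meeting, shorter peaks were more readily left unmet, and this gap in size follows in part from the rule. Nearly all widths, 97.4 and 97.1%, lay within 1 base of a multiple of 30 bases, so a width is known only to steps of that size. The median fold was 2.65 and 2.62 against 4.97 and 4.65, with a range from 1.18 to 64.8 in replicate 1 and from 1.09 to 61.3 in replicate 2. The median log10 p was -5.29 and -4.72 against -17.5 and -15.9.

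Since no scaling between lists is stated, each peak was also ranked within its own list, from 0 for the strongest to 100 for the weakest. By log10 p the median sgNS-only narrow peak stood at 70.2 in replicate 1 and 74.5 in replicate 2. Narrow peaks that met a single sgMETTL1 list stood at 61.8 and 65.5, and those that met both stood at 32.3 and 33.9. By fold the order was the same, 74.3 and 73.4, then 66.3 and 67.3, then 41.1 and 41.2. Peaks found in fewer sgMETTL1 lists were therefore lower in the sgNS lists by both measures, with wide overlap between the classes. An FDR above 1% was listed for 6.96 and 7.98% of the sgNS-only narrow peaks, against 0.266 and 0.770% of those that met both sgMETTL1 lists.

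**Figure D1:**
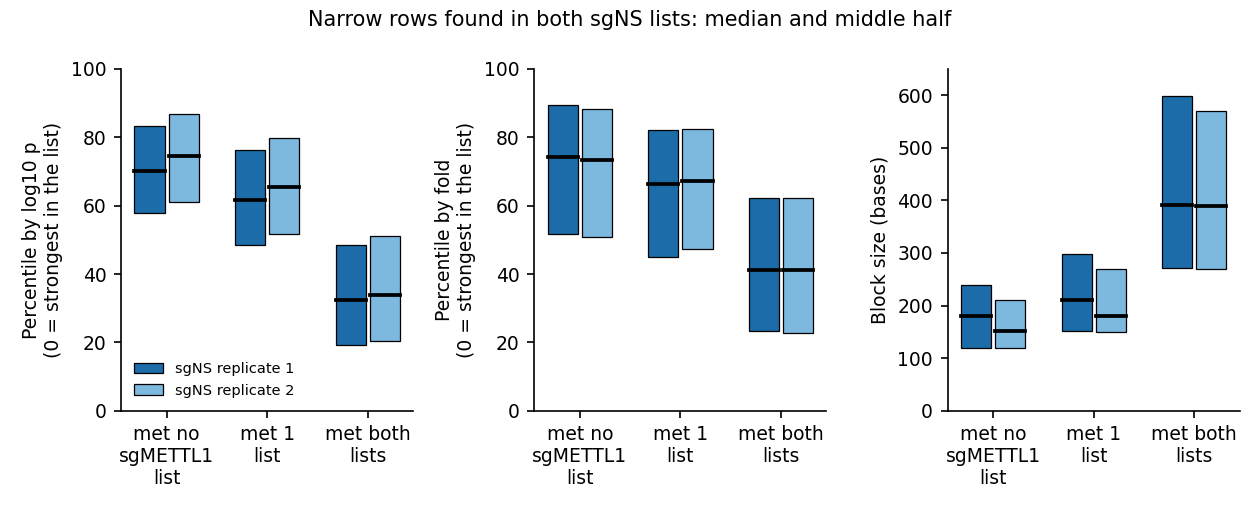
Narrow peaks held by both sgNS lists, split by how many sgMETTL1 lists they met; boxes span the middle 50% and the line is the median, for percentile by log10 p, percentile by fold and block size in bases. In both replicates the unmet peaks have the highest median percentile (70.2 and 74.5 by log10 p) and the lowest median size (180 and 151 bases).

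The share of narrow peaks left unmet rose as their strength fell. Each list was divided into 4 equal parts by log10 p. In the strongest part of replicate 1, 2 of 1760 narrow peaks (0.114%) met no sgMETTL1 list. The next parts held 157 of 2538 (6.19%), 519 of 2094 (24.8%) and, among the weakest, 486 of 1105 (44.0%). In replicate 2 the counts were 3 of 1658 (0.181%), 114 of 2434 (4.68%), 482 of 2146 (22.5%) and 579 of 1381 (41.9%). With the guides exchanged, the weakest part held 11.9 and 10.7% unmet peaks and the strongest held 1 of 1705 and 0 of 1563. Within each part the sgNS share was the higher one in both replicates, although a part covers stronger log10 p values in the sgNS lists than in the sgMETTL1 lists.

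**Figure D2:**
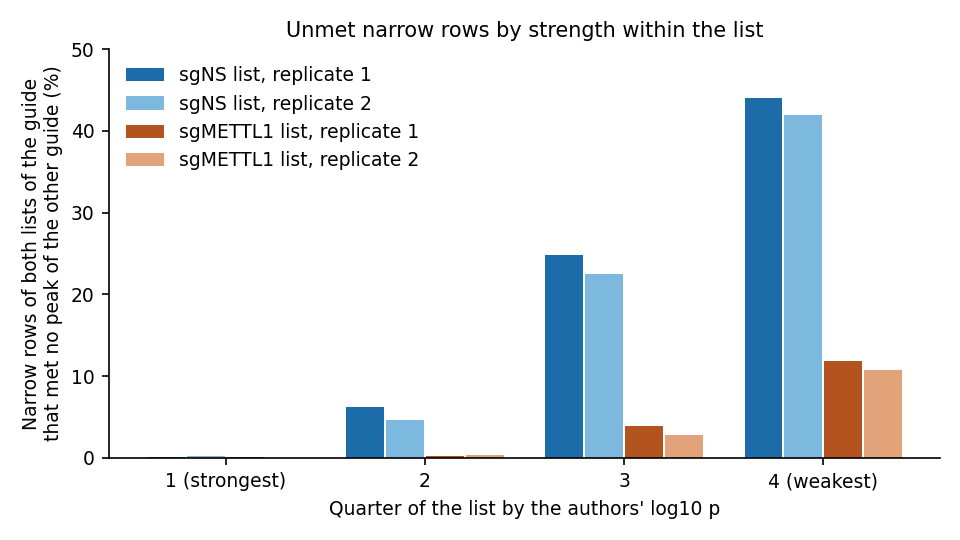
Share of narrow peaks of both lists of a guide that met no peak of the other guide, in percent, for 4 equal parts of the list by the authors' log10 p; 1 bar per list, with no replicate error since each bar is 1 list. The sgNS bars rise from 0.114 and 0.181% in the strongest part to 44.0 and 41.9% in the weakest, and the sgMETTL1 bars reach 11.9 and 10.7%.

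The rule required a shared base with the other control list, so a partner peak at each site is no finding. Of the 1305 sites, 1005 held an sgNS-only narrow peak in both lists. At the other 300 a single list did, since the partner peak met an sgMETTL1 list (217 sites), was 1000 bases or longer (42) or had several exon blocks (41). At the 1005 sites, with the strongest peak standing for a list where it held several (30 sites), the 2 peaks shared a median of 121 bases, and 60 pairs had the same start and end. The higher fold exceeded the lower by a median of 1.24 times. Folds lay within 1.5 times of each other at 754 sites (75%) and more than 2 times apart at 108 (10.7%). The widest gap was at TMEM136, with 32.4 over 510 bases in replicate 1 and 4.23 over 61 bases in replicate 2. Across the 1005 sites, Spearman's rank correlation between the replicates was 0.85 for fold, 0.41 for the percentile by log10 p and 0.36 for block size; the points come from the same 2 pairs of libraries, and sites of 1 gene are not independent.

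Few of these sites were strong in both replicates. Both peaks stood in the weaker 50% of their lists by log10 p at 804 of the 1005 sites (80.0%) and in the stronger 50% at 59 (5.87%). A single site, in SERPINA1, had both peaks in the strongest of the 4 parts. Folds above 10 in both lists were found at 67 sites and folds under 2 in both at 205.

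**Figure D3:**
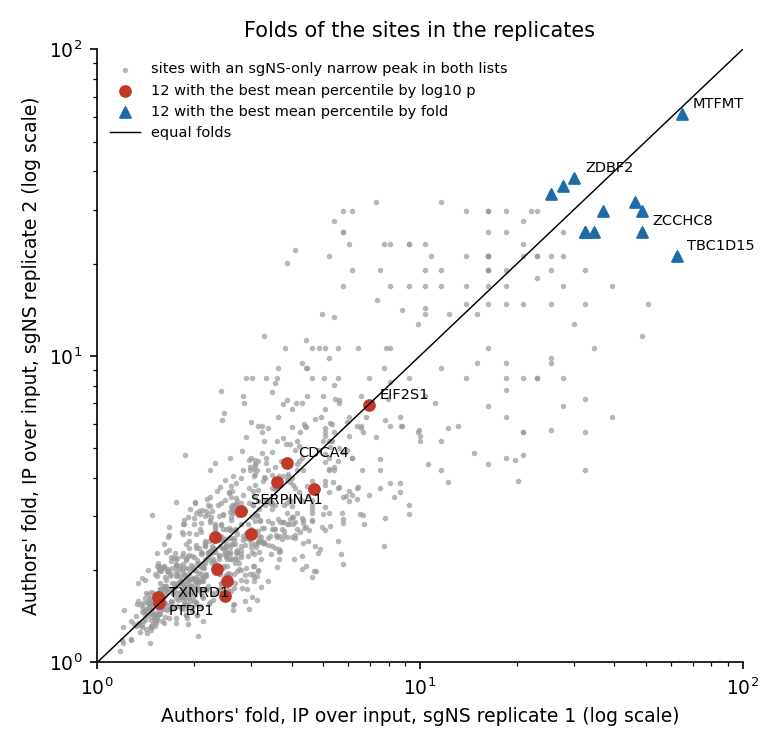
The authors' fold, IP over input, of each of the 1005 sites in sgNS replicate 1 (horizontal) and replicate 2 (vertical), both on log scales; each point is a site, coloured for the 12 best sites by log10 p and the 12 best by fold, and the line marks equal folds. The 12 best sites by log10 p have folds from 1.54 to 6.94, whereas the 12 best by fold run from 21.1 to 64.8, where points fall on a grid.

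The most significant sites were modest enrichments, and most lay in genes with further QKI7 peaks. SERPINA1 encodes alpha-1 antitrypsin, a protease inhibitor that hepatocytes secrete. Its sgNS-only peak lay on the minus strand of chromosome 14 (GRCh38) at 94378212 to 94378331 in replicate 1 and 94378152 to 94378331 in replicate 2. The fold was 2.79 in replicate 1 and 3.13 in replicate 2, and log10 p was -58.3 and -78.4. The peak stood at percentiles of 20.6 and 16.4 by log10 p but 71.7 and 64.3 by fold. SERPINA1 had its main peak, downstream, in all 4 lists, with folds of 18.7 and 22.0 under sgNS and 17.0 and 15.2 under sgMETTL1. The main peak was 1226 and 1316 bases long under sgNS and 1077 and 1137 under sgMETTL1, with the same 3' end, so its 5' end came nearer to the sgNS-only peak in the control lists.

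TXNRD1, the cytosolic thioredoxin reductase, held a peak with the same bounds in both control lists, chromosome 12 plus strand 104348632 to 104348841. Its fold was 1.55 in replicate 1 and 1.56 in replicate 2, with log10 p of -38.2 and -43.8. It lay 328 bases upstream of the nearest sgMETTL1 peak. The other peaks of TXNRD1 were met, with folds of 2.54 and 2.40 against 2.18 and 1.72 for the nearer one and 3.01 and 2.84 against 2.39 and 2.52 for the farther one. Each was again shorter with sgMETTL1, 300 and 211 bases against 450 in both control lists for the nearer.

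SMAD5, which carries bone morphogenetic protein signals to the nucleus, held an sgNS-only peak of 270 bases in both lists (chromosome 5 plus strand, 136181267 to 136181536 in replicate 1). The fold was 3.61 and 3.88, with log10 p of -24.5 and -37.2. A peak downstream was listed under both guides, at 4.74 and 12.7 in the control lists and 8.80 and 6.01 under sgMETTL1, so the order of its folds was not the same in the replicates. UBE3A, a ubiquitin ligase, had folds of 4.71 and 3.68 at its sgNS-only peak (chromosome 15 minus strand, 25337249 to 25337639 in replicate 1). Its other peak, upstream, had folds of 4.35 and 4.17 under sgNS and 3.26 and 3.03 under sgMETTL1.

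The other genes in this group with peaks under sgMETTL1 were KPNA6, FNDC3B, AKR1C2, HS2ST1 and LPP. KPNA6, an importin alpha, had folds of 3.00 and 2.63 at its sgNS-only peak. FNDC3B had 2.48 over 570 bases and 1.65 over 240 bases. AKR1C2, a ketosteroid reductase with near-identical neighbours among which reads may be split, had 2.31 and 2.56. HS2ST1, a heparan sulfate sulfotransferase, had 2.35 and 2.02. In LPP, a LIM protein of focal adhesions, the sgNS-only peak (2.53 and 1.84) lay downstream of a peak of 5098 bases in both control lists that also stood in both sgMETTL1 lists, at 73.2 and 67.0 under sgNS and 82.9 and 85.3 under sgMETTL1. Of the 12 best sites by log10 p, 9 were in genes with a peak in an sgMETTL1 list, at distances of 178 to 1557 bases.

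The remaining 3 were in genes with no peak under sgMETTL1. CDCA4 held 1 peak per control list, 3.88-fold over 330 bases and 4.46-fold over 360 bases, with log10 p of -35.7 and -36.6 (chromosome 14 minus strand, 105009962 to 105010291 in replicate 1). EIF2S1 encodes the alpha subunit of the initiation factor eIF2, whose phosphorylation starts the integrated stress response. Its peak of 451 bases in both lists (chromosome 14 plus strand, 67384299 to 67384749 in replicate 1) had folds of 6.94 and 6.89, the closest to equal in this group beside TXNRD1. PTBP1, a repressor of alternative exons, had 1.54 and 1.64 over the same 359 bases (chromosome 19 plus strand, 811641 to 811999).

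**Figure D4:**
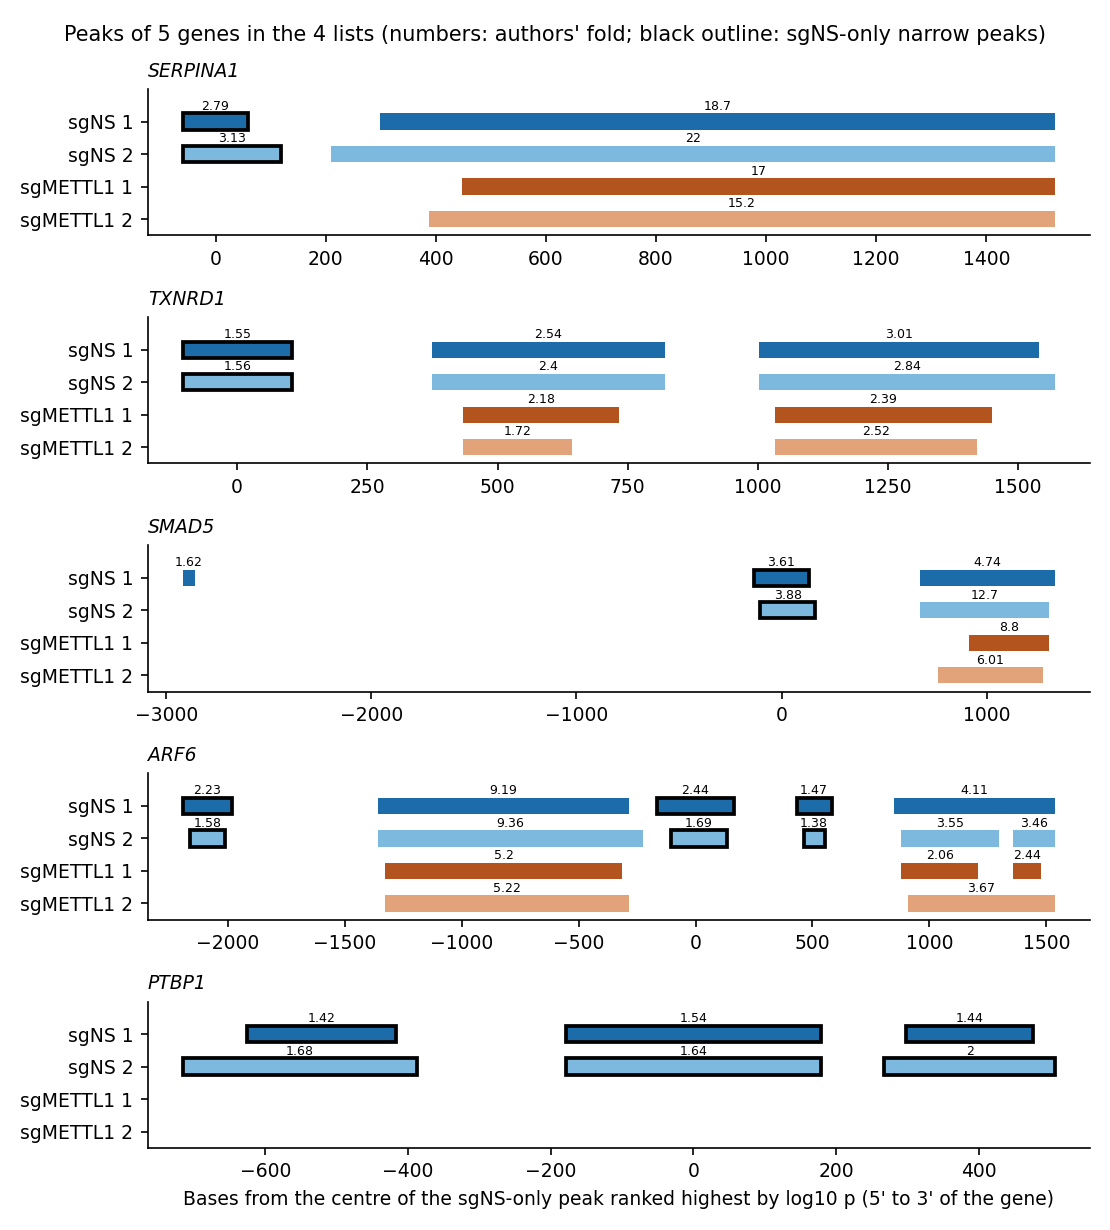
Peaks of SERPINA1, TXNRD1, SMAD5, ARF6 and PTBP1 in the 4 lists (guide and replicate number at left); bars span each peak in bases from the centre of the sgNS-only peak ranked highest by log10 p, read 5' to 3', numbers above bars are the authors' folds and black outlines mark sgNS-only narrow peaks. SERPINA1, TXNRD1, SMAD5 and ARF6 have other peaks under sgMETTL1, whereas PTBP1 has 3 peaks in each sgNS list and 0 in both sgMETTL1 lists.

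By fold, the leading sites were another set, with high ratios and little significance. The 12 best had folds of 21.1 to 64.8 but log10 p of only -4.97 to -13.3, at percentiles by log10 p of 45.3 to 72.5. MTFMT, which formylates the initiator methionyl-tRNA of mitochondria, stood first with 64.8 over 479 bases and 61.3 over 567 bases (chromosome 15 minus strand, 65001631 to 65002109 in replicate 1). No peak of MTFMT was listed with sgMETTL1. The other genes of this set without an sgMETTL1 peak were MKX, a homeobox gene (48.6 and 29.6), the imprinted gene ZDBF2 (30.1 and 38.0), NCK1, an adaptor of tyrosine kinase signalling (37 and 29.6), SRSF12, an SR-type splicing factor (34.7 and 25.4), and GLUD2 (32.4 and 25.4). GLUD2 is a near-identical copy of GLUD1, so its reads may be uncertain between them.

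In the other 6 genes an sgMETTL1 peak lay 59 to 478 bases away. TIGAR, which lowers glycolytic flux, had 27.8 and 35.9 at its sgNS-only peak. Its strongest sgMETTL1 peaks were 24.4 in replicate 1 and 22.2 in replicate 2, at different places. ALPK3, an alpha-kinase gene, had 46.3 and 31.7. Its single sgMETTL1 peaks, 21.3 in replicate 1 and 22.2 in replicate 2, lay on opposite sides of the sgNS-only peak. ZCCHC8, a subunit of the nuclear exosome targeting complex, had 48.6 and 25.4. Its main peak, a wider one upstream, had folds of 25.8 and 34.4 under sgNS and 40.0 and 32.4 under sgMETTL1. VAMP4, a vesicle SNARE, had 25.5 and 33.8, and SLC4A7, a sodium bicarbonate cotransporter, had 32.4 and 25.4. TBC1D15, a Rab GTPase-activating protein, showed the largest gap between replicates of these sites, 62.5 over 300 bases against 21.1 over 181 bases. Where such folds differ between replicates they exceed each other by up to 2.96 times, and the folds themselves are coarse. Among sgNS-only narrow peaks with folds of 10 to 100, 92 of 115 in replicate 1 and 95 of 110 in replicate 2 lay within 0.06 of a whole multiple of 1 step per list (2.315 and 2.113). Each step was fitted to its own list, as the one of those tried that placed the most folds on whole multiples. For narrow peaks that met sgMETTL1 the share was 36.4% in both lists. With a step 7% larger the shares were 1.74 and 4.55% for sgNS-only narrow peaks and 3.34 and 5.47% for those that met sgMETTL1. No source states what a step stands for.

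Most genes of the sgNS-only narrow peaks also had a QKI7 peak somewhere under sgMETTL1. Of the 1133 genes, 757 (66.8%) had a peak in both sgMETTL1 lists, 129 (11.4%) in 1 and 247 (21.8%) in neither. Among all 4972 genes named in both sgNS lists, 4150 (83.5%) had a peak in both sgMETTL1 lists. In 194 genes the sgNS-only narrow peaks were the only peaks of the control lists. In 71.3% of cases in replicate 1 and 70.6% in replicate 2 the sgNS-only narrow peak was not the most significant peak of its gene, against 49.0 and 49.8% for narrow peaks that met sgMETTL1. The rule required that no sgMETTL1 peak touch these places, so a lower share of genes with sgMETTL1 peaks follows in part from the choice.

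Many of these peaks lay close to a peak that sgMETTL1 cells did have. The nearest sgMETTL1 peak on the same strand was a median of 535.5 bases away in replicate 1 and 508 in replicate 2. It was within 100 bases for 11.9% in both lists, within 300 bases for 36.9 and 37.9%, and within 1000 bases for 63.2 and 63.8%. Within 10000 bases the shares were 75 and 75.6%, and for the other 25 and 24.4% it was more than 10000 bases away. The shortest gap was 28 bases, at 7 peaks. Of these, 4 were in replicate 2, at EP300, a histone acetyltransferase (fold 3.22), SYNRG (7.39), TET1 (3.57) and RBM4 (3.05), and 3 in replicate 1, at KDM5A, PECR and SEC62. Just outside the rule, peaks in ALDH1L2 (3.39), MKLN1 (2.54) and PDPR (3.21) shared 1 base with an sgMETTL1 peak. In all, 71 of the chosen peaks lay within 30 bases of one and 119 narrow peaks shared 30 bases or fewer with one, so whether these were chosen turned on where a peak was taken to end. Another peak of the same control list lay within 300 bases for 43.9 and 41.3%, close to the 48.1 and 47.3% of narrow peaks that met sgMETTL1.

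**Figure D5:**
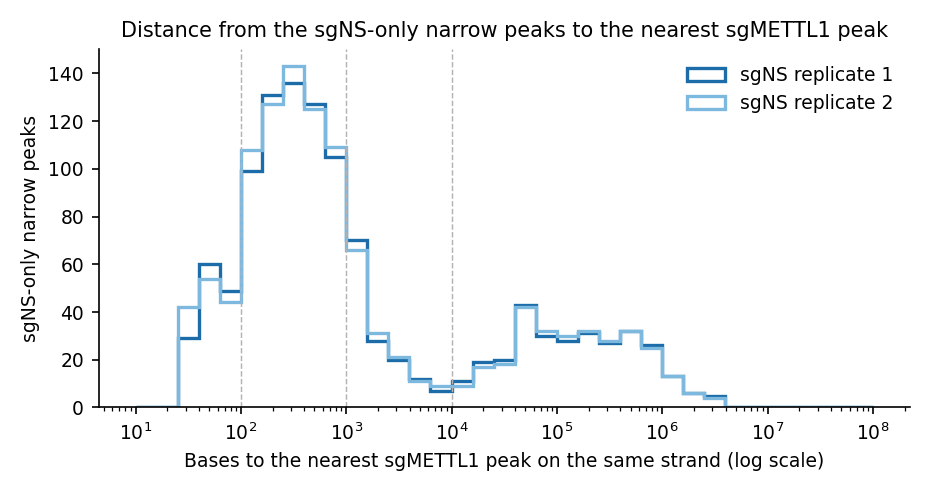
Number of sgNS-only narrow peaks by their distance in bases to the nearest sgMETTL1 peak on the same strand (log scale), with 1 line per sgNS replicate and dashed lines at 100, 1000 and 10000 bases. Both replicates show a main hump around their medians of 535.5 and 508 bases and a smaller one beyond 10000 bases, which holds 25 and 24.4%.

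Along the gene, these peaks were placed much like the other narrow peaks. The centre lay in the last 10% of the gene's span for 79.3 and 79.6% of them, against 79.8 and 79.6% of narrow peaks that met sgMETTL1. The first 10% of the span held 1.29 and 0.850% against 0.412 and 0.374%. Within 1000 bases of the gene's end lay 37.7 and 37.3%, against 41.8 and 41.3%. Spans run from the RefSeq gene start to its end, introns included, so these values do not tell coding from untranslated exons. The plus strand carried 54.6 and 54.7% of them. By chromosome, leaving out chromosome Y with 2 narrow peaks and none of them sgNS-only, the share of narrow peaks of both control lists that were sgNS-only ran from 11.5% on chromosome 5 to 18.7% on chromosome 12.

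Single sites were the rule: 978 genes held 1 site, 136 held 2 and 19 held 3 or more. Those 19 genes held 59 sites, with folds of 1.27 to 23.2, and 13 of them had a peak in both sgMETTL1 lists. MTR, the methionine synthase gene, held 4 sites on chromosome 1, each found in both control lists. The folds of its sites, from 5' to 3', were 3.02 and 2.99, 1.52 and 1.44, 2.53 and 2.18, and 3.33 and 3.38. Among them stood other peaks of MTR that sgMETTL1 lists also held. DOT1L, the histone H3 lysine 79 methyltransferase gene, also counted 4 sites, with folds of 1.84 to 3.79, but 1 of them alone had a narrow peak in both control lists. The wide peak of 1201 bases in replicate 2 covered the places of a further 2 sites of replicate 1.

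Among the same 19 genes, 2 had every control peak in this class and no sgMETTL1 peak at all, and both encode splicing regulators. PTBP1 had 3 peaks in each control list: 1.42 and 1.68, 1.54 and 1.64, and 1.44 and 2.00, from 5' to 3'. SRSF1, an SR protein, had 3 on the minus strand of chromosome 17, with 4.06 in replicate 1 and 2.17 in replicate 2 at the most 3' of them. The other peaks of SRSF1 were 1.59 and 1.37, and 1.67 and 1.40. The stronger replicate was not the same for both genes. The log10 p at the SRSF1 sites was -12.8 and -5.51, -4.10 and -2.64, and -11.8 and -5.67, each weaker in replicate 2. At PTBP1 each was weaker in replicate 1, at -5.68 against -11.5, -19.7 against -35.6 and -7.55 against -29.6.

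ARF6, a small GTPase of membrane traffic at the cell surface, held 3 sites beside peaks that all lists shared. Its sgNS-only folds were 2.23 and 1.58, 2.44 and 1.69, and 1.47 and 1.38, each higher in replicate 1. The main peak of ARF6 had folds of 9.19 and 9.36 under sgNS, against 5.2 and 5.22 under sgMETTL1. The cystine transporter gene SLC7A11 held 3 sites with folds of 1.27 to 1.82 beside its main peak, whose folds were 4.87 and 3.69 under sgNS and 3.24 and 3.28 under sgMETTL1. DGKE, a diacylglycerol kinase gene, reached 11.6 and 16.9 at its most 3' site. NCAPG, a condensin subunit gene, TSKU and ZBTB6 had no peak in sgMETTL1 replicate 2 and 1 in replicate 1. SLC30A6 had 2 peaks in sgMETTL1 replicate 2 and none in replicate 1. The others were ARFGEF3, EPB41L5, LIN54, MKL2, SPRED1, SREK1, TMEM135 and TNKS.

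Gene lists were then counted against all genes. Of the 4318 genes with a narrow peak in both control lists, 1133 (26.2%) held an sgNS-only narrow peak. Of 27 lists, 13 stood above this share and 14 below. Most lists hold few genes with a narrow peak, so the counts carry no test. A gene with more narrow peaks had more chances to hold an sgNS-only one. The lists were not matched to all genes for the number of peaks per gene.

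Among genes that act on RNA, splicing factors and other RNA-binding proteins held such a peak in 22 of 60 genes (36.7%), among them 6 of the HNRNP series (HNRNPA0, HNRNPA3, HNRNPC, HNRNPD, HNRNPR and HNRNPU) and TNRC6A, TNRC6B and TNRC6C, the scaffolds of microRNA silencing. HNRNPA0 had 2.07 and 2.37, and 18 of the 22 genes had a peak in both sgMETTL1 lists. None of 5 genes listed as known QKI targets held one. QKI itself had 4 and 6 peaks in the control lists, against 6 and 4 under sgMETTL1, none of them sgNS-only. Of the RNA methylation enzymes and readers, 1 of 7 did, the reader YTHDF3 at 1.9 and 1.4. Stress granule proteins did in 3 of 15 genes: PUM2 (1.39 and 1.56), FXR1 (50.9 and 14.8) and FMR1.

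Translation genes stood near the share of all genes or were too few to compare. Initiation and elongation factors held an sgNS-only narrow peak in 6 of 23 genes (26.1%). Beside EIF2S1 these included EIF4B, at 1.47 and 1.44 over 90 bases in both lists, and EIF4G2, at 1.18 and 1.09. Cytosolic ribosomal protein genes had 3 with a narrow peak, and 2 held an sgNS-only one: RPL22 (2.08 and 1.53) and RPL37 (3.31 and 3.25). Neither gene had any peak with sgMETTL1, and both have processed copies elsewhere in the genome that can share reads. Genes of the integrated stress response did in 5 of 13 (38.5%), with DDIT4 at 1.42 and 1.49 and no sgMETTL1 peak.

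Signalling lists gave some of the higher shares, on small numbers and not matched for the number of peaks per gene. MAPK and PI3K genes did in 9 of 18 (50%), among them ERBB3, GAB1, IRS2 and MAP3K2. At ERBB3, a receptor of the EGF receptor family, the folds were 1.43 and 1.25, with no peak under sgMETTL1. Wnt genes did in 8 of 17 (47.1%), among them the receptor gene FZD4 with sites of 1.88 and 1.62 and of 1.6 and 1.77. TGF-beta and activin genes did in 7 of 16 (43.8%): ACVR2B, BMPR2, INHBE, SKIL, SMAD2, SMAD5 and TGFBR2, all with a peak in both sgMETTL1 lists. INHBE, a liver-expressed activin subunit gene, had 2.31 and 2.03, and the receptor gene ACVR2B 1.98 and 1.64. Hippo pathway genes did in 3 of 14 (21.4%), with LATS1 at 2.14 and 2.04.

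Chromatin regulators did in 15 of 33 genes (45.5%), with the histone methyltransferase genes KMT2A at 5.40 and 4.35, 89 and 119 bases from an sgMETTL1 peak, and SETD2 at 2.87 and 1.59. ZNF zinc finger genes did in 35 of 131 (26.7%), with ZNF780A at 2.99 and 4.66. Solute carriers did in 27 of 82 (32.9%). The amino acid transporter genes SLC7A1 (1.38 and 1.88) and SLC7A5 (1.33 and 1.55) both had folds under the medians given above but log10 p of -11.5 and -46.0, and of -11.1 and -22.1. Vesicle coat and tethering genes had one of the lower shares, 5 of 40 (12.5%), with EXOC5 at 5.40 and 5.63. Small GTPases did in 10 of 47 (21.3%), and kinesins and dyneins in 4 of 15 (26.7%).

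In metabolism and the cell cycle the numbers were small. Cholesterol synthesis genes did in 3 of 7 (42.9%), among them SC5D, with 4.73 and 2.39, and MSMO1, with 1.56 and 1.73 and no sgMETTL1 peak. Mitochondrial ribosome and respiratory chain genes did in 5 of 22 (22.7%), with MRPS35 at 2.04 and 1.73. Protein phosphatase subunits did in 11 of 34 (32.4%), TMEM genes in 13 of 52 (25%), ubiquitin ligases in 5 of 22 (22.7%) and G2/M genes in 2 of 12 (16.7%), where BUB1B, a spindle checkpoint kinase gene, had 3.23 and 5.90. Of 4 hepatocyte secreted protein genes 1 did, SERPINA1. The fibroblast and blood cell markers had 1 gene with a narrow peak in both control lists, and it held none.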

How the data were processed

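Peak lists of 4 IP and input pairs (QKI7 RIP-seq, HepG2 cells) were analysed as deposited. Per the submitters' processing notes, STAR and GRCh38 were used; for the peak caller, its threshold and its scaling nothing is stated in these sources. The fold of a peak is a ratio, IP over input, as deposited by the authors, 1 list per pair, with replicates not pooled. Its p-value is the authors', and the log10 p and log10 FDR the authors deposited were handled as a score. The largest FDR listed was 5.01%.

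Python 3.11.15, pandas 2.3.3, numpy 2.4.6, scipy 1.17.1 and matplotlib 3.10.9 were used. Overlap was counted over exon blocks, same strand, at least 1 base; shares carry exact Clopper-Pearson intervals at 95%. Peaks were ranked within a list by log10 p and by fold. Coordinates were converted to count from 1. Genes were looked up in RefSeq (GRCh38.p14): all 1133 matched, 38 through an older symbol, and 2338 of 2342 peaks lay inside their gene. Overlap and choice of peaks were tested on simulated lists, where 0 of 1101 narrow peaks were placed wrongly.

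Named sites were the 12 best by mean percentile of log10 p and of fold, genes with 3 or more sites, up to 3 sites per gene list and the peaks at the thresholds (a single peak of 1000 bases or more met the other conditions). Peaks, lists and rules were chosen with earlier results of these data known. Motifs were counted only where 4 peaks reached into RefSeq promoter windows (GRCh38.p14), and sequence under the other peaks was not analysed here. Some genes and 2 gene lists are not reported here.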

Additional observations from a re-analysis of the deposited data

How the results depend on the processing

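Values here are means of the 2 lists of a guide. The number of sgNS-only narrow peaks (1171) became 738.5 with 50% reciprocal overlap between the sgNS lists, 427 with no sgMETTL1 peak within 1000 bases and 733 with equal numbers of peaks per list. The sites (1305) became 760, 444 and 808 in that order. The reverse count (161.5) became 71 with reciprocal overlap and 74.5 with the 1000-base gap. The sgNS share (15.5%) became 12.3% with reciprocal overlap, 20.3% for blocks under 500 bases, 13.7 and 5.65% with gaps of 100 and 1000 bases, 11.4% with equal numbers, 15.6% with places counted once and 14.1% at an FDR of at most 1%. The reverse share (2.61%) became 1.5, 3.37, 2.10, 1.2 and 3.70% under the first 5 of these and 1.92% at the FDR of 1%, below the sgNS share each time. The median percentile by log10 p (72.4) became 63.9 with equal numbers and that by fold (73.9) 74.7. These percentiles were still those within the full lists, while the setting removed the weakest peaks by log10 p. The lower value by log10 p therefore follows in part from the setting and does not show stronger peaks. The share of peaks whose gene had peaks in both sgMETTL1 lists (66.3%) became 64.3 or 75.3% when peaks of both or of either list within 10000 bases counted. The share in the last 10% of the gene (79.4%) became 88.7% for the last 20%. Chosen after seeing the data were 4 equal parts of the list by log10 p, with 0.147, 5.43, 23.6 and 43.0% unmet, and the narrow peaks meeting 1 sgMETTL1 list, at a median percentile of 63.6.

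Leaving out each list in turn gave 1795 to 2761 peaks per list, 1967 to 2727 sites, sgNS shares of 23.8 to 28.2%, reverse counts of 311.5 to 1043, reverse shares of 5.04 to 12%, median percentiles of 68.3 to 81.0 by log10 p and 68.4 to 71.0 by fold, block sizes of 121 to 180.5 bases and 76.7 to 79.1% in the last 10% of the gene. Of 58 alternatives that left out no list, 27 moved by less than the spread between lists, or less than 1.5 times for counts. No result comes from a test, so no paired analysis was made. Read counts were not used, so depth limits on single peaks are unknown. The planned motif counts were made only in the parts of 4 peaks, 13 to 180 bases long, inside RefSeq promoter windows. On the gene's strand ACTAAC and ACTAAT had 0 matches there and TAAC and TAAT had 4, all in CREBZF, against 5.50 and 54.2% of all promoter windows of 300 bases with a match; the lengths differ, so no comparison was made.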
